A study of Homo sapiens with 6 samples.

Results

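The 89 genes described here had almost no reads in the control library of ME-180 cells and at least 100 counts in the library labelled p63 knockdown of the same cells. They were chosen by those counts: with the transcript of the highest summed count standing for each gene name, at least 100 counts in the library labelled knockdown and at most 3 in the control were required. Of 8798 names in the ME-180 table, 109 (1.24%) met these limits, and 89 remained after solute carriers, ZNF genes, collagens, protocadherins, HOX genes and 12 further names were left out by the rule. The difference between the 2 ME-180 libraries is therefore how the genes were found and is given as a description with no test. The SiHa libraries were not used by the rule.

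ME-180 and SiHa are human cervical cancer cell lines, both labelled as passages 13 to 15. The ME-180 control library carries the vector name plko in its label and the other ME-180 library the name shp63. SiHa contributed a library labelled vector and a library labelled p63 overexpression. The sources used here do not say whether a line was 1 clone or a pool, and each of the 4 groups is 1 library, so no value has a replicate error and no comparison of the conditions can be tested. The rows of the tables summed to 10804272 (ME-180 control), 10046579 (labelled knockdown), 14207637 (SiHa vector) and 13690639 counts (SiHa overexpression), and CPM below means counts scaled to a sum of 1000000. In the labelled knockdown, the main TP63 transcript NM_001114980.1 had 6 counts against 5619 in the control, and in SiHa it stood at 7 (vector) and 179 (overexpression).

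p63 is a transcription factor that keeps the basal layer of squamous epithelia in its lineage. Genes of other lineages, such as those for heart and limb mesenchyme, neurons or endocrine cells, are normally silent in such an epithelium, often through compacted or methylated chromatin at their promoters. Developmental transcription factors of the T-box, homeobox and HAND families set up these other lineages, and channels, matrix proteins and enzymes carry out their functions.

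Of the 89 genes, 59 had 0 counts in the ME-180 control, 12 had 1, 8 had 2 and 10 had 3. In the library labelled knockdown they had between 100 and 1029 counts, with a median of 198, or 9.95 to 102 CPM with a median of 19.7 CPM. Summed over the 89 genes, the control held 58 counts (5.37 CPM) and the library labelled knockdown 21488 (2139 CPM). Counts grow with transcript length, which the tables do not give, so levels are compared between libraries and not between genes. In bulk RNA, fewer cells that use a gene and less RNA of it per cell cannot be told apart.

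**Figure D1:**
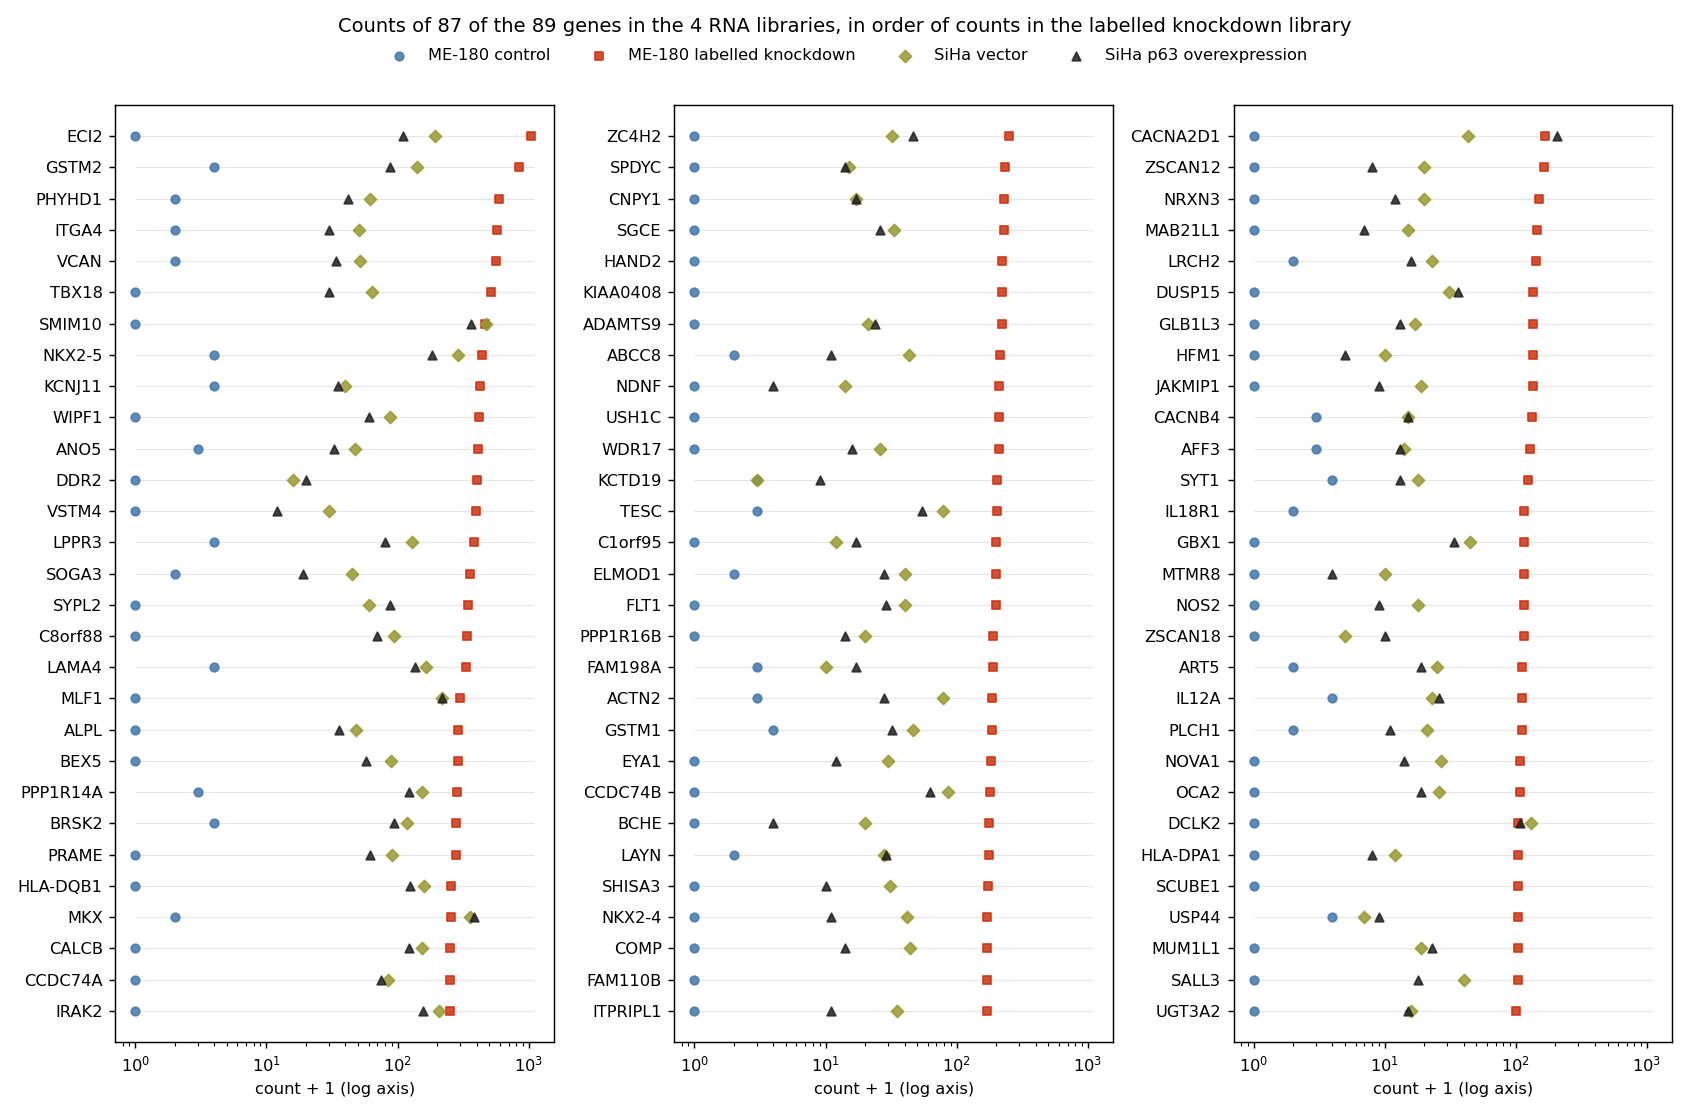
Counts plus 1 (log axis) of 87 of the 89 genes in the 4 RNA libraries, in order of counts in the library labelled knockdown. Blue circles are the ME-180 control, red squares the labelled knockdown, yellow diamonds the SiHa vector and black triangles SiHa p63 overexpression; the 6 genes with no diamond or triangle have no row in the SiHa table. All controls lie at 3 counts or fewer, and most SiHa values lie between the ME-180 values of the same gene.

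The limits cut through a continuous range of counts. UGT3A2 (100 counts in the labelled knockdown), MUM1L1 and SALL3 (102 each) were just inside, and CNTFR and PLA2G7 (99 each) and MEF2C (98) just outside. On the control side, GSTM2, NKX2-5 and KCNJ11 had 3 counts and were inside, while ALDH1L2, DAAM2 and SHISA8 had 4 and were outside. For 60 genes the ME-180 table has 1 transcript row, and for 29 it has more. Over all rows of a gene, 8 genes had more than 3 control counts, led by BRSK2 with 16 and KCNJ11 with 9. Their summed counts in the labelled knockdown were 810 and 711, so for these 2 genes the contrast did not rest on the choice of transcript. A read may count for several rows of 1 gene.

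Among the 89 were 12 transcription and chromatin regulators, many of them developmental, and 9 of the 12 were at 0 in the control. TBX18, a T-box factor of sinus node and ureteric mesenchyme, had 0 counts in the ME-180 control, 513 in the labelled knockdown, 63 in the SiHa vector library and 29 with overexpression. With the control set to a floor of 3 counts, this was 184-fold higher in the labelled knockdown. The 95% counting interval of the ratio to the 0 counts observed began at 149. NKX2-5, the homeobox factor of early heart muscle, had 3 and 437 counts in ME-180 and 287 and 183 in SiHa. MKX, a homeobox factor of tendon, had 1 and 252 in ME-180 and 356 and 381 in SiHa. Scaled to the totals, MKX stood at 25.1 CPM in both the labelled knockdown and the SiHa vector library, whereas TBX18 stood at 51.1 against 4.43 CPM.

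HAND2, a basic helix-loop-helix factor of heart, limb and sympathetic neurons, had 0 and 220 counts in ME-180, and the SiHa table has no row for it. EYA1, a transcriptional cofactor in kidney and ear development, had 0 and 180 counts in ME-180 and 29 and 11 in SiHa. NKX2-4, a homeobox gene related to NKX2-1, had 0 and 170 in ME-180 and 41 and 10 in SiHa. For EYA1 and NKX2-4, both SiHa libraries lay between the ME-180 libraries. The other 6 regulators were MAB21L1 (0 and 143 counts in ME-180), AFF3 (2 and 127), ZSCAN12 (0 and 163), ZSCAN18 and GBX1 (0 and 114 each) and SALL3 (0 and 102). In the SiHa vector library they had from 4 counts (ZSCAN18) to 44 (GBX1).

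The RefSeq promoter table (GRCh38.p14) has an entry for 63 of the 89 genes, or 70.8%. This is too few to compare promoter composition over the set, and that comparison was not made. The 4 promoters below are shown because their genes differ in kind: 2 developmental factors, the gene that stood apart in SiHa, and a matrix receptor. Each run is the 250 bases before the annotated start, 5′ to 3′ on the strand of the gene, with CpG dinucleotides, the sites of DNA methylation, in capitals. The first is from chr6:84764599-84764848 (minus strand), the second from chr20:21397527-21397776 (minus), the third from chr7:82443957-82444206 (minus) and the last from chr1:162630613-162630862 (plus).
TBX18: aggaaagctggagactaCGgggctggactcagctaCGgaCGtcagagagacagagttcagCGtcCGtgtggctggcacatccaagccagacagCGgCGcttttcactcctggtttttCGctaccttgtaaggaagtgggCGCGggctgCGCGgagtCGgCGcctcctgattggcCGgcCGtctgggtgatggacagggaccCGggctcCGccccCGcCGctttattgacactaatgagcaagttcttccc
NKX2-4: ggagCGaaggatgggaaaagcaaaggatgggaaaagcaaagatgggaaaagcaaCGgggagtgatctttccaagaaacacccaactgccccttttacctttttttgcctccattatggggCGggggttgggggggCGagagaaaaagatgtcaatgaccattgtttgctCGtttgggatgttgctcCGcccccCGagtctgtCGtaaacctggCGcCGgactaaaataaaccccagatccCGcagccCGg
CACNA2D1: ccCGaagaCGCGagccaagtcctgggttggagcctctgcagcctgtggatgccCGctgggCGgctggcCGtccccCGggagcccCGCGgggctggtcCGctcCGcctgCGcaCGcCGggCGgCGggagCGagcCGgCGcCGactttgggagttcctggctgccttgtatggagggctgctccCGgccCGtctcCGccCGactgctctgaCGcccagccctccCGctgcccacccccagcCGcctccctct
DDR2: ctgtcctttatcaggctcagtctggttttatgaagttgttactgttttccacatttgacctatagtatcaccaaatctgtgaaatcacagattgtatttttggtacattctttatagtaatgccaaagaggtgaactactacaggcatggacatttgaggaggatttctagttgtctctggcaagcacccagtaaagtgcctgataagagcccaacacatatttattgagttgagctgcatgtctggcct

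The TBX18 window holds 20 CpG dinucleotides at 61.6% G and C, and the NKX2-4 window 12 at 53.2%. The CACNA2D1 window holds 27, at 75.6% G and C, and the DDR2 window 0, at 40.0% G and C. The selection fixed the counts of all 4 genes in ME-180, so nothing about promoter type is read from them. The counted transcripts may start elsewhere, and methylation was not measured in these files.

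A further 12 genes coded for matrix, adhesion or secreted surface proteins, 8 of them at 0 in the control. ITGA4, the alpha-4 integrin subunit that binds fibronectin and VCAM1, had 1 and 568 counts in the ME-180 pair, and 50 and 29 in the SiHa vector and overexpression libraries. VCAN, the large proteoglycan versican, had 1 and 562 in ME-180 and 51 and 33 in SiHa. DDR2, a collagen receptor kinase of mesenchymal cells, had 0 and 403 in ME-180 and 15 and 19 in SiHa. Of these, DDR2 had the widest gap between the labelled knockdown and the SiHa vector library, at 40.1 against 1.06 CPM. A different DDR2 transcript stood for the gene in each line, whereas ITGA4 and VCAN had the same one in both.

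VSTM4 had 0 and 392 counts in ME-180 and 29 and 11 in SiHa. LAMA4, a laminin chain of vessel and muscle basement membranes, had 3 and 331 in ME-180 and 163 and 135 in SiHa. FLT1, a VEGF receptor of endothelium, had 0 and 197 in ME-180 and 39 and 28 in SiHa. COMP, a pentameric cartilage matrix protein, had 0 and 169 in ME-180 and 43 and 13 in SiHa. SGCE, ADAMTS9, NDNF, LAYN and SCUBE1 had 0 or 1 counts in the control and 103 (SCUBE1) to 227 (SGCE) in the labelled knockdown. SCUBE1 has no SiHa row, and the other 4 had 13 to 32 counts in the SiHa vector library.

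Another 15 genes coded for channels, synaptic proteins or other neuronal proteins, and all 15 have a SiHa row. KCNJ11 and ABCC8 code for the pore and the sulfonylurea receptor of the ATP-sensitive potassium channel, which couples glucose metabolism to insulin release in beta cells. KCNJ11 had 3 and 420 counts in ME-180 and 39 and 34 in SiHa, and ABCC8 had 1 and 211 in ME-180 and 42 and 10 in SiHa. Both subunits were thus near 0 in the control and above 200 counts in the labelled knockdown. The 2 genes stand next to each other in the genome, and ABCC8 is followed by USH1C, the scaffold protein harmonin, which had 0 and 208 counts in ME-180 and no row in SiHa.

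CACNA2D1, the alpha-2-delta subunit of voltage-gated calcium channels, had 0 and 166 counts in ME-180 and 42 and 205 in SiHa. It was the only gene of the group whose highest count stood outside the labelled knockdown, apart from DCLK2, a doublecortin-like kinase with 0 and 103 counts in ME-180 and 130 and 107 in SiHa. Of the synaptic genes, NRXN3, an adhesion protein of nerve terminals, had 0 and 150 counts in ME-180, and SYT1, the calcium sensor of vesicle release, had 3 and 122. CACNB4, another calcium channel subunit, had 2 and 131, and NOVA1, a splicing factor of neurons, 0 and 107. These 4 genes had 14 to 26 counts in the SiHa vector library and 11 to 14 with overexpression.

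LPPR3, a neuronal membrane protein, had 3 and 380 counts in ME-180 and 127 and 79 in SiHa. BRSK2, a kinase of neuronal polarity, had 3 and 276 in ME-180 and 117 and 93 in SiHa. CALCB, a calcitonin-gene-related peptide, had 0 and 251 in ME-180 and 153 and 121 in SiHa. SYPL2, a synaptophysin-like protein of the muscle triad, had 0 and 340 in ME-180 and 59 and 87 in SiHa, and JAKMIP1 had 0 and 135 in ME-180 and 18 and 8 in SiHa.

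There were 10 enzymes, 6 of them at 0 in the control. The transcript of ECI2, an isomerase used in oxidation of unsaturated fatty acids, had 0 and 1029 counts in ME-180 and 190 and 108 in SiHa. The mu-class glutathione transferase GSTM2 had 3 and 836 in ME-180 and 140 and 86 in SiHa, and its neighbour GSTM1 had 3 and 183 in ME-180 and 45 and 31 in SiHa. The 2 genes are close copies, so reads can be divided between them in either direction. PHYHD1 had 1 and 592 counts in ME-180 and 60 and 41 in SiHa. ALPL, the alkaline phosphatase of bone and liver, had 0 and 288 in ME-180 and 47 and 35 in SiHa. BCHE, butyrylcholinesterase, had 0 and 176 in ME-180 and 19 and 3 in SiHa. NOS2, UGT3A2, GLB1L3 and ART5 had 0 or 1 counts in the control and 100 to 135 in the labelled knockdown. For all 10 enzymes the control was the lowest and the labelled knockdown the highest of the 4 libraries by counts.

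The immune genes numbered 6, 4 of them at 0 in the control. WIPF1, an actin regulator of blood cells, had 0 and 413 counts in ME-180 and 86 and 59 in SiHa. HLA-DQB1, a class II antigen-presenting chain, had 0 and 255 in ME-180 and 158 and 124 in SiHa, and HLA-DPA1 had 0 and 103 in ME-180 and 11 and 7 in SiHa. HLA genes are polymorphic and alike, so their counts depend on how well reads of a line match the reference. IRAK2, a kinase below interleukin-1 receptors, had 0 and 251 in ME-180 and 204 and 156 in SiHa. IL12A had 3 and 111 in ME-180 and 22 and 25 in SiHa, and IL18R1 had 1 and 115 in ME-180 with no SiHa row. The 5 with a SiHa row had counts between those of the ME-180 libraries in both SiHa libraries.

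Of the germ line and cell division genes, PRAME, a cancer-testis antigen, had 0 and 275 counts in ME-180 and 89 and 60 in SiHa. SPDYC, HFM1 (a meiotic helicase) and USP44 had 234, 135 and 103 counts in the labelled knockdown and 14, 9 and 6 in the SiHa vector library. Of the muscle and phosphatase genes, ANO5, an anoctamin of muscle, had 2 and 406 in ME-180 and 46 and 32 in SiHa. ACTN2, the alpha-actinin of sarcomeres, had 2 and 184 in ME-180 and 77 and 27 in SiHa. PPP1R14A, an inhibitor of myosin phosphatase in smooth muscle, had 2 and 280 in ME-180 and 153 and 121 in SiHa. PPP1R16B, DUSP15 and MTMR8 had 0 in the control and 114 to 189 in the labelled knockdown.

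The last 24 genes have other or little-known roles, and 17 of them were at 0 in the control. SMIM10 had 0 and 463 counts in ME-180 and 467 and 360 in SiHa, and SOGA3 had 1 and 354 in ME-180 and 44 and 18 in SiHa. C8orf88 had 0 and 339 in ME-180 and 93 and 69 in SiHa, and MLF1, a myeloid leukemia factor, 0 and 298 in ME-180 and 217 in each SiHa library. BEX5 had 0 and 286 in ME-180 and 88 and 56 in SiHa. CCDC74A and CCDC74B, near-identical copies, had 251 and 178 counts in the labelled knockdown, and SOGA3 and KIAA0408 are adjacent. The counts within each of these pairs are uncertain where reads overlap. The group also held ZC4H2, CNPY1, WDR17, KCTD19, TESC, C1orf95, ELMOD1, FAM198A, SHISA3, ITPRIPL1, FAM110B, LRCH2, PLCH1, OCA2 and MUM1L1, with 102 (MUM1L1) to 247 (ZC4H2) counts in the labelled knockdown.

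The SiHa table, which the rule did not use, has a row for 83 of the 89 genes. In the SiHa vector library these 83 had from 2 to 467 counts, with a median of 39, and 0 of 83 were at 0 counts. At least 1 CPM was reached by 70 of the 83 (84.3%). Over all names of the SiHa table this share was 71.7%. It was 15.3% of 1134 other names that also had at most 3 counts in the ME-180 control, and 99.6% of 4326 other names with at least 100 counts in the labelled knockdown. The members' share thus lay between those of the 2 sets that share 1 of their limits; these sets are not matched to the members in level. SMIM10, MKX, NKX2-5, MLF1, IRAK2, ECI2, LAMA4, HLA-DQB1, and PPP1R14A and CALCB (tied) were among the members with the most counts in the SiHa vector library. HAND2, USH1C, KIAA0408, FAM110B, IL18R1 and SCUBE1 have no SiHa row and cannot be read as not expressed, since a gene without a row has no value in the tables used here.

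In all 83 genes the level in the labelled knockdown was at or above that in the SiHa vector library, with a median ratio of 8.15. The ratio ran from 1.001 for MKX (95% counting interval 0.848 to 1.18) to 142 for KCTD19, which had 2 counts in SiHa (38.8 to 1182). It was at least 10 in 34 genes and below 2 in 5, namely MKX, DCLK2 (1.12), SMIM10 (1.40), IRAK2 (1.74) and MLF1 (1.94). Since the genes were selected for high counts in the labelled knockdown, a ratio above 1 is in part set by that choice. Across the 83 genes, Pearson's r of log2 CPM between the 2 libraries was 0.578, a description over genes only. The same transcript stood for the gene in ME-180 and SiHa in 62 of the 83, and those genes share their transcript length in both libraries. For the rest, r and the ratios above compare different transcripts of a gene. Of all 4409 names with at least 100 counts in the labelled knockdown and a SiHa row, members included, 0 were at 0 counts in the SiHa vector library. Of 4367 names with at least 100 counts in the ME-180 control, 21 were. Of 152 names with the opposite pattern, at least 100 counts in the control and at most 3 in the labelled knockdown, 13 were at 0 in SiHa and 58.6% reached 1 CPM.

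**Figure D2:**
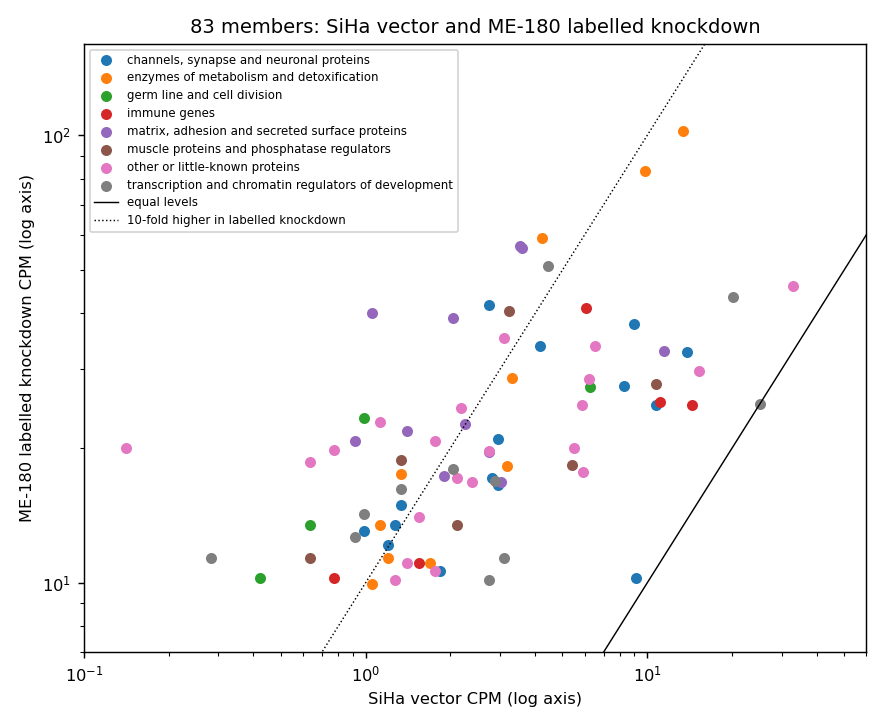
CPM in the SiHa vector library (x, log axis) and in the ME-180 library labelled knockdown (y, log axis) for the 83 genes with a SiHa row, coloured by role. The solid line marks equal levels and the dotted line a 10-fold higher level in the labelled knockdown; MKX lies on the solid line and 34 genes lie on or left of the dotted one.

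With p63 overexpression in SiHa, 64 of the 83 genes had a lower CPM and 19 a higher one, and how many differed by 2-fold depended on the pseudocount. Of 73 members with at least 1 CPM in at least 1 SiHa library, 4 were called lower and 1 higher at 2-fold on the scale of log2(CPM + 1), where the pseudocount of 1 understates ratios of low genes. Over all 6995 genes at that level, 0.743% were called lower and 0.572% higher, and among the 4070 no higher than the members' maximum of 32.9 CPM, 1.25% were called lower. These 4070 genes are capped at that maximum but not matched to the members in level. The median of the 83 members in the SiHa vector library was 2.75 CPM. The members' share of 5.48% called lower is 4 genes. By the plain ratio with no pseudocount, 15 of the 73 were at least 2-fold lower, beside 3.73% of all genes and 6.39% within the members' range of levels. The count was 13 with a pseudocount of 0.1 CPM, 14 by the log fold change of the authors' deposited table, 0 with a pseudocount of 5 CPM and 1 with a floor of 5 CPM. The 4 genes were ABCC8 (42 counts with the vector and 10 with overexpression), NKX2-4 (41 and 10), ACTN2 (77 and 27) and COMP (43 and 13). ABCC8 was 4.05-fold lower (95% counting interval 2.0 to 9.05), NKX2-4 3.95-fold (1.95 to 8.84), ACTN2 2.75-fold (1.75 to 4.43) and COMP 3.19-fold (1.68 to 6.46). By this plain ratio they were not the lowest members. BCHE (19 and 3 counts) was 6.1-fold lower (1.8 to 32.2) and ITPRIPL1 (34 and 10) 3.28-fold (1.58 to 7.44), and neither was called with the pseudocount of 1.

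The gene called higher was CACNA2D1, with 42 counts in the SiHa vector library and 205 with overexpression, or 2.96 against 15.0 CPM. Its ratio was 5.07 (95% counting interval 3.62 to 7.24). In the authors' deposited table it had a log2 fold change of 2.38 and an adjusted p of 0.00194, which rests on 1 library per group and so on no spread between replicates. It was the only member with an adjusted p below 0.05 in the authors' deposited table for SiHa, and 78 of the 83 stood at exactly 1 there. The shares over all SiHa names are not given here, so neither number is read as a result about the members. CACNA2D1 thus had more counts in the labelled knockdown than in its control and more with p63 overexpression than with the vector.

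Below the 2-fold limit the members also lay to the lower side. Of the 73, 57 (78.1%) had a log2 ratio below 0, against 57.5% of all genes at that level and 61.7% of genes within the members' range of levels. Their median log2 ratio was -0.31, with quartiles of -0.54 and -0.10, beside -0.05 over all genes and -0.09 over genes within that range. The counting interval of the ratio lay below 1 in 23 of 83 members (27.7%), against 18.7% of all 9490 names. Among the 73 it did so in 22 (30.1%), against 20.1% of genes within the range of levels. The genes within that range are not matched to the members in level. The counting interval lay above 1 for CACNA2D1 and SYPL2 (59 and 87 counts), against 11.4% of all names. Summed over the 83 genes, the level was 378 CPM with the vector and 311 with overexpression, a ratio of 0.822, or 0.788 without CACNA2D1.

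By role, all 10 enzymes had a log2 ratio below 0 (median -0.37), led by BCHE with 19 and 3 counts, ECI2 with 190 and 108 and GSTM2 with 140 and 86. Of the 8 transcription and chromatin regulators at 1 CPM, 7 were below 0 (median -0.68). TBX18 (63 and 29 counts), SALL3 (39 and 17), EYA1 (29 and 11) and NKX2-5 (287 and 183) were among them, while MKX (356 and 381) was not. Of the 15 channel and neuronal genes, 11 were below 0 (median -0.24). The groups are small and were drawn up with the gene names known, so no difference between them is claimed.

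**Figure D3:**
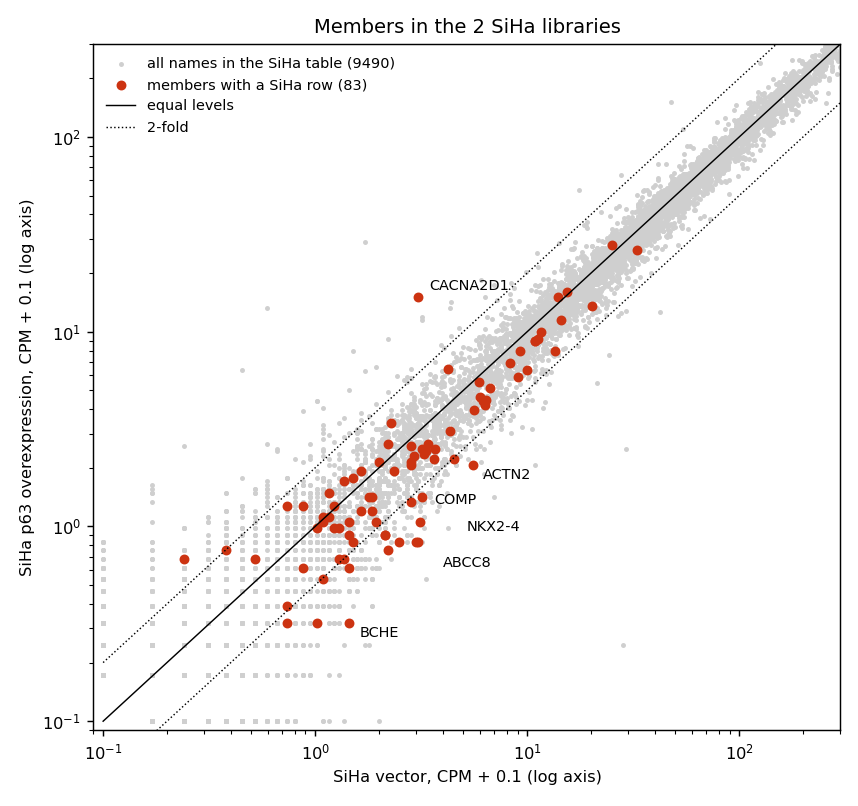
CPM plus 0.1 in the SiHa vector (x, log axis) and p63 overexpression libraries (y, log axis), with the axes ending at 300: red points are the 83 genes with a SiHa row and grey points all names of the table. The solid line marks equal levels and the dotted lines 2-fold on this scale; CACNA2D1 lies above the upper dotted line, and most red points lie below the solid line.

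The tissue identity of the genes was read against 20 lists of lineage markers, which together hold 693 genes. Only 16 of the 89 genes are on a list, and 73 are on none. The members on a list fell into many lineages and not into 1 tissue. The ion channel list held CACNA2D1 and CACNB4, among others. The neuronal structure list (NOVA1, MAB21L1), the synapse list (SYT1, NRXN3), the embryonic kidney list (EYA1, TBX18), the muscle list (ACTN2, NKX2-5) and the cartilage and bone list (COMP, ALPL) held 2 each. The neural crest (HAND2), cancer-testis (PRAME) and endothelial (FLT1) lists held 1. No member is on the liver, blood, fibroblast, glia, gut and lung, oncofetal, axon guidance, signalling, epithelial or housekeeping lists.

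The other genes of these lists differed in both directions, as a few examples chosen after their values were seen show. In the neural crest list, 8 of 20 genes with a row had at least 10 counts in the control and 7 in the labelled knockdown. There HAND2 (0 counts in the control and 220 in the labelled knockdown), GATA2 (184 and 446) and GATA3 (39 and 215) were higher. Of the enzymes of catecholamine synthesis, TH had 62 and 0 counts and DDC 1 and 0. In the muscle list, 5 and 8 of 18 reached 10 counts. TNNI3 (336 counts in the control and 475 in the labelled knockdown) and TTN (26 and 105) stood beside MYOG with 2 and 1 and TNNT2 with 46 and 0.

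In the endothelial list, 3 and 4 of 11 genes reached 10 counts. Beside FLT1, the vessel cadherin CDH5 had 1 and 0 counts (control and labelled knockdown) and the receptor TEK 9 and 0. In the neuronal structure list, 17 and 20 of 28 reached 10 counts, with the neurofilament NEFM at 12 and 353 and MAP2 at 26 and 4. In the synapse list, 8 and 14 of 25 did so, with UNC13A at 7 and 101 and SNAP25 at 31 and 0. In the cartilage and bone list, 5 and 7 of 14 did so, with ACAN at 0 and 2. Over all names of the table, 69.9% reached 10 counts in the control and 68.4% in the labelled knockdown.

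The embryonic kidney list showed the widest gain in detected genes among the 20. The gain describes the same 2 libraries that chose the members, and the parts of TBX18 and EYA1 in it were fixed by the rule. Of its 23 genes with an ME-180 row, 7 had at least 10 counts in the control and 18 in the labelled knockdown, while 9 and 0 were at 0 counts. Beside TBX18 and EYA1, the labelled knockdown had 154 counts of EMX2, 90 of CITED1, 66 of WT1 and 42 of PAX2, against 8, 0, 2 and 3 in the control. PAX8, in contrast, had 67 control counts against 1 in the labelled knockdown. The summed level of the list was lower in the labelled knockdown (230 CPM) than in the control (552 CPM), where JAG1 alone had 4861 counts.

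The labelled tissue of ME-180, a squamous cervical carcinoma, was checked with the squamous list. At least 10 counts were reached by 12 of its 14 genes with a row in the control and by 4 in the labelled knockdown, where 7 were at 0, among them IVL (52 counts in the control) and SPRR1A (16). The summed level was 73136 CPM in the control and 40.8 in the labelled knockdown over those 14 genes. For the 10 of them with a SiHa row, the SiHa vector library held 4172 CPM, of which KRT17, a keratin of stressed and basal epithelium, made up 4134. Without KRT17 the other 9 genes summed to 37.4 CPM in the SiHa vector library, beside 32.3 in the labelled knockdown and 69887 in the control. KRT5 made up most of that control sum, with 679522 counts. It had 239 counts in the labelled knockdown and 247 in the SiHa vector library. In the simple epithelium list, 11 of 11 genes reached 10 counts in the control and 3 in the labelled knockdown, with ELF3, EHF, ESRP1 and SPINT1 at 0. All 14 housekeeping genes with a row reached 10 counts in both ME-180 libraries. The part of these marker differences in the counts of the 89 genes was not tested.

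**Figure D4:**
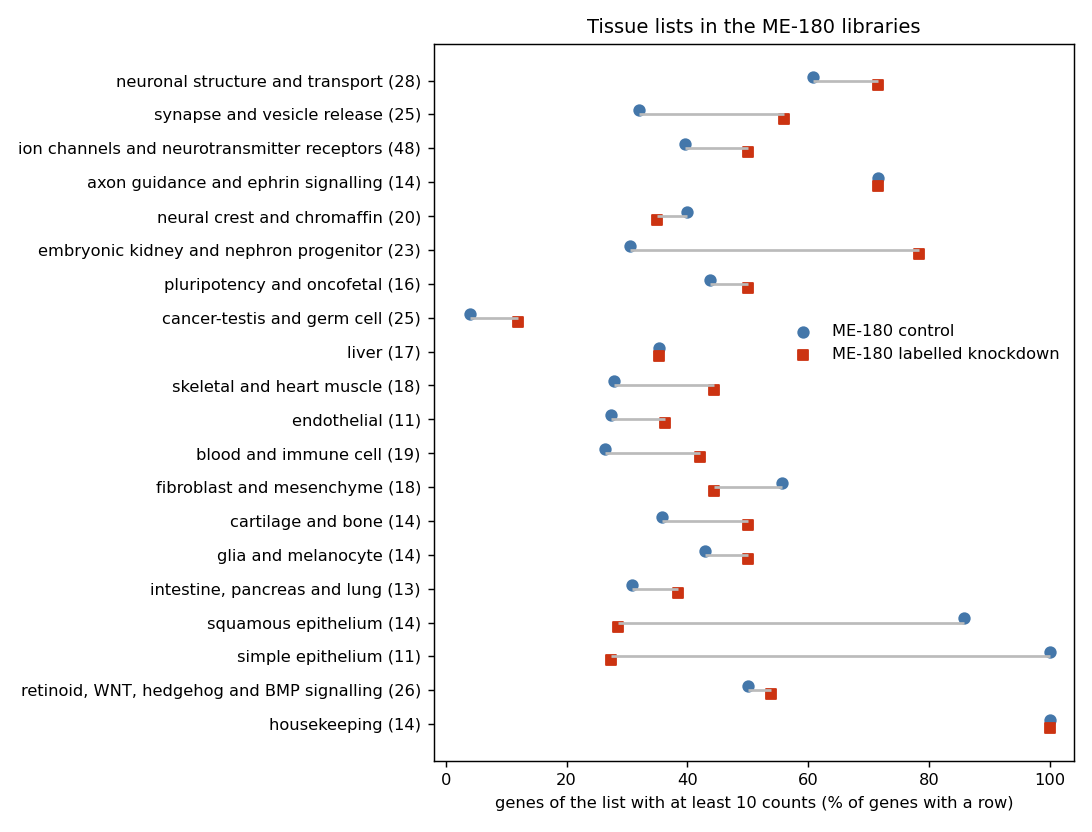
Share of genes with at least 10 counts in each of 20 tissue lists, in percent of the genes with an ME-180 row (their number in brackets), for the ME-180 control (blue circles) and the library labelled knockdown (red squares). The embryonic kidney list goes from 7 to 18 of 23 genes, the squamous list from 12 to 4 of 14, and the housekeeping list stands at 14 of 14 in both.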

How the data were processed

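RNA of 4 libraries was read from 2 deposited tables. The values are whole-number counts per RefSeq transcript, per the file headers, for 15189 transcripts in ME-180 and 16600 in SiHa. TopHat, Cufflinks, DESeq2 and the build hg19 appear in the submitters' processing notes. How reads were counted, and with which strand setting, is not given in the sources used here. Both tables deposited by the authors also give a log2 fold change and p-values from 1 library per group; these are quoted only where named. The peak table was not used here. Names turned into dates (32 ME-180 and 31 SiHa rows) were restored through the transcript identifier.

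The transcript with the most counts over both libraries stood for each name. CPM used the table totals. Exact Poisson and conditional binomial 95% intervals (scipy 1.17.1, pandas 2.3.3) cover counting error only. TMM scaling came from edgeR 4.0.16. A gene was called at 2-fold on log2(CPM + 1) with at least 1 CPM in a library; on simulated counts this rule was tested first. No test of conditions was possible with 1 library per group. The order of genes came from RefSeq (GRCh38.p14), to which all 89 members matched. Role groups were written after the member names were seen.

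The members, the 20 lists and the rules were chosen with earlier results of these data known. The rule for named genes took TP63, the 20 members with the most counts in the labelled knockdown, the 10 with the most in the SiHa vector library, members on a list, members called in SiHa, and names nearest the limits; other members were named to account for the rest. A few genes are not reported here by name.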

Additional observations from a re-analysis of the deposited data

How the results depend on the processing

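The number of genes depends on the limits: 59 names had 0 control counts, 134 passed with up to 10, 143 with at least 50 counts in the labelled knockdown and 43 with at least 200. Summing all transcript rows gave 99 names, 81 of them among the 89, and scaling to the mean total gave 92, which include all 89. At least 5 CPM in the SiHa vector library was reached by 23 members. The 4 members called lower in SiHa became 13 with a pseudocount of 0.1 CPM (3.27% of all genes), 0 with 5 CPM (0.0858%), 1 of 25 with a floor of 5 CPM (0.511%) and 14 by the log fold change of the authors' deposited table (3.33%). With no pseudocount, an alternative added after seeing the data, it was 15 (3.73%). Under these settings 1 member was called higher. Over all 6995 genes, 14 were called higher with a pseudocount of 5 CPM, 113 with 0.1 CPM and 119 with none. The authors' log fold change gave 126, and a floor of 5 CPM 24 of 5479. The median log2 ratio was -0.16 with a pseudocount of 5 CPM and -0.26 with TMM scaling, under which 56 of 73 members and 49.8% of all genes lay below 0. The same transcript in both tables, added as an alternative for the median after seeing the data, gave -0.34. No paired analysis was possible because each group is 1 library. Levels near 3 counts per library (0.211 CPM in the SiHa vector) cannot be told from 0.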

Other observations

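The coding genes next to the 89 in the genome were looked at as well. Of 75 neighbours with an ME-180 row that are not members, 57 reached 1 CPM in the control or the labelled knockdown. Of these, 30 (52.6%) were at least 2-fold higher in the labelled knockdown and 5 at least 2-fold lower, with a median log2 ratio of 1.06. Of 6695 other names at that level, 27.2% were at least 2-fold higher, and their median was 0.26. The share of other names at least 2-fold lower is not given here, so the 5 are not read further. Among the neighbours, 1 itself met the count limits of the rule, was left out of the members by name, and is counted among the 30. GPM6A, next to WDR17, had 0 and 74 counts (control and labelled knockdown), and ATP8A1, next to SHISA3, 6 and 475. NCR3LG1, next to KCNJ11, had 180 and 738. Not all neighbours went this way: NT5E, next to TBX18, had 1100 and 11 counts, and SPINT2, next to PPP1R14A, 7421 and 87. These values come from the contrast that chose the members, so they describe the 2 libraries only. Whether reads that run past the end of a member entered its neighbour's count was not tested.

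Members also stood beside each other. There are 5 adjacent pairs: KCNJ11 and ABCC8, ABCC8 and USH1C, GSTM2 and GSTM1, KIAA0408 and SOGA3, and MTMR8 and ZC4H2.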
